A study of Homo sapiens with 11 samples.

Results

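Prostaglandin genes were followed through 11 Affymetrix HG-U133 Plus 2.0 arrays of MDA-MB-231 cells, an established human breast cancer line of the triple-negative type, grown in RPMI medium. The 7 genes encode a phospholipase that frees arachidonic acid (PLA2G4A), both cyclooxygenases (PTGS1 and PTGS2), a prostaglandin E synthase (PTGES), a pair of prostaglandin E2 receptors (PTGER2 and PTGER4) and the dehydrogenase that inactivates prostaglandins (HPGD). They were chosen by name, with earlier results of these data known. The 16 probe sets annotated to exactly 1 of these symbols were taken out of 54675, and averaged per gene they gave 7 of the 19775 genes measured. PTGS1 and HPGD were each read by 4 probe sets, PTGS2, PTGES and PTGER4 by 2, and PLA2G4A and PTGER2 by 1.

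Every culture spent 4 h in charcoal-stripped serum before a treatment of 3 h. Cells received 1 µM E2-BSA, which is estradiol coupled to bovine serum albumin (2 arrays), 1 µM E2-BSA with 10 µM ICI (1 array) or 1 µM E2-BSA with 10 µM G15 (1 array). Others received 1 µM free estradiol, 1 µM of the carrier BSA, 0.1% ethanol as the vehicle of estradiol, 10 µM ICI or 10 µM G15 (1 array each). Untreated control cells had 2 arrays. The labels give ICI by its abbreviation alone. G15 is known to block the membrane estrogen receptor GPER. Whether duplicate arrays stand for separate cultures is not in the labels. No group had duplicates within a set of comparable arrays. The measured spread behind each test is therefore that of the E2-BSA difference over 4 pairs of arrays, 2 of them with an antagonist. Using these pairs takes the effects of E2-BSA and of an antagonist as additive. Limma also draws each gene's spread towards a prior taken over all genes. The number of arrays limits precision. The values were on a log scale, taken as log2, and centred per probe set, so they give differences between arrays and no level of a gene. Nor could the labelled cell type be checked against its markers. In bulk RNA, fewer cells with a transcript and less transcript per cell cannot be told apart.

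Prostaglandin synthesis begins when cytosolic phospholipase A2 releases arachidonic acid from membrane phospholipids. The cyclooxygenases turn it into prostaglandin H2, PTGS1 being present in many tissues at rest while PTGS2 is induced by cytokines, growth factors and stress, often through NF-kB. Microsomal prostaglandin E synthase, the product of PTGES, is often induced together with PTGS2 and makes prostaglandin E2, which acts on cells through receptors that include PTGER2 and PTGER4, both of which raise cyclic AMP. In breast cancer the inducible cyclooxygenase has long been studied for its part in invasion and metastasis.

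The start regions of 4 genes are shown because their values carry the results below. PTGS2, PTGES and PLA2G4A stood out in the same 3 arrays, and PTGER4 was the member that followed PTGS2 most closely over the other 8. These genes were chosen for display after their values were seen. The sequences are RefSeq's for GRCh38.p14, 250 bases before and 50 after the annotated start, 5′ to 3′ on the gene's strand. They lie at chr1:186680374-186680673 (PTGS2, minus strand), chr9:129752993-129753292 (PTGES, minus), chr1:186828699-186828998 (PLA2G4A, plus) and chr5:40679665-40679964 (PTGER4, plus). Capitals mark matches on either strand to the motifs searched, which are named with the results after the sequences.
PTGS2: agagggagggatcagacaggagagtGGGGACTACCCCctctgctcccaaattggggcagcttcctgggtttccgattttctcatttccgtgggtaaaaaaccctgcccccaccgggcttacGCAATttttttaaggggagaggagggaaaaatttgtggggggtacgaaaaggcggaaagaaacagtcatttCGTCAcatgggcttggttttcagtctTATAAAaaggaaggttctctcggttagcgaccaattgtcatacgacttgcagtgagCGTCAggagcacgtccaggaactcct
PTGES: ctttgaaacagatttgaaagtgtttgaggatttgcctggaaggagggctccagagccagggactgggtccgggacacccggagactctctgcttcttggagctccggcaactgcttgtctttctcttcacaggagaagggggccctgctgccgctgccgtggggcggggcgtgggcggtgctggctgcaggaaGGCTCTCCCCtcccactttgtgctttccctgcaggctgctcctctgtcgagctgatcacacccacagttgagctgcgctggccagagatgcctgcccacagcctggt
PLA2G4A: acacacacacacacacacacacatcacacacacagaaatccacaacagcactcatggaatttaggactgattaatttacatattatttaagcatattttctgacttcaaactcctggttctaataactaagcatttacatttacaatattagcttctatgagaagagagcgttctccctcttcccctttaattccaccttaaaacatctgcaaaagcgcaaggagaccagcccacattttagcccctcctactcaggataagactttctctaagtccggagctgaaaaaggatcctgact
PTGER4: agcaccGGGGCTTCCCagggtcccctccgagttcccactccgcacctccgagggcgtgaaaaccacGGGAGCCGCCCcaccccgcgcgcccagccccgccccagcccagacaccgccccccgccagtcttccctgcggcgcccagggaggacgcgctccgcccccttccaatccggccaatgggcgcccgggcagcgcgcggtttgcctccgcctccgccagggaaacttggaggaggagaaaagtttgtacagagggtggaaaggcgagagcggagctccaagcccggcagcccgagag

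Positions are counted from the start site. The PTGS2 window held a TATA box, searched as TATAAA, from base -32 to -27, and 11.5% of 35116 RefSeq start regions of the same length held one. A C/EBP site, searched as the core GCAAT, lay from -129 to -125, against 24.5% of start regions with a match. The cyclic AMP response element, searched as its core TGACG, matched on the other strand from -58 to -54 and from 24 to 28, and 24.6% of start regions held it. For NF-kB the consensus was searched, and also a more open frame, GGGNNNNNCC, which takes in every consensus match. The PTGS2 window held 4 overlapping matches to the open frame on the 2 strands between -225 and -214, as did 58.7% of start regions in some place, and none to the consensus. The PTGER4 window matched the consensus, which 11.3% of start regions held, at -244 to -235, and the open frame there and between -184 and -174. The consensus also matched in windows not shown, of PTGER2 (-155 to -146) and HPGD (-70 to -61), so it was not particular to PTGER4. The PTGES window held 1 match to the open frame, at -57 to -48, and the PLA2G4A window none of the motifs. An AP-1 site (TGACTCA, in 4.95% of start regions) was found in none of the 4 windows shown. The E-box searched as CACGTG (in 7.26% of start regions) was not found in them either. A match is a description of the letters and not of binding. PTGS2 (chr1:186671791-186680423) and PLA2G4A (chr1:186828949-186988981) are neighbours on chromosome 1, with 148525 bases and 1 annotated gene, PACERR, between them.

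The 11 arrays fell into sets of 3 and 8 by their poly-A spike-ins, bacterial transcripts added before labelling. These averaged 1.40 to 1.62 over 24 probe sets in the first E2-BSA, the estradiol and the first control array, and -0.56 to 0.10 in the other 8. The labels name no batch. Array medians lay between -0.05 and 0.09. The centred 3′ minus 5′ difference of GAPDH, a sign of RNA integrity, was -0.07 to -0.04 in the set of 3 and -0.15 to 0.08 in the other 8, and that of ACTB -0.31 to -0.15 and -0.17 to 0.35. The BSA array had the highest ACTB difference, 0.35, followed by the ICI array with 0.20, and also the highest array median, 0.09. The hybridisation controls of the ethanol array averaged 0.77, and those of the other 10 arrays -0.28 to 0.21. Treatments were therefore compared within the sets.

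PTGS2, PTGES and PLA2G4A were all higher in the set of 3, whichever treatment its arrays had received. PTGS2 stood at 2.76 with E2-BSA (first array), at 2.51 with estradiol and at 2.30 in the first control, against -0.63 to 0.17 in the other 8. The sets did not overlap, and the gap between them was 2.13, where the arrays within the set of 3 spanned 0.46. The first array exceeded the second by 3.31 in the E2-BSA group and by 2.93 in the control group. Averaged over both groups, the difference of 3.12 was the 20th highest of 19775 genes.

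Both PTGS2 probe sets showed this division, though not to the same extent. Probe set 204748_at differed by 3.93 between the E2-BSA arrays and by 3.98 between the control arrays. Probe set 1554997_a_at differed by 2.70 and 1.89. A gene average therefore combines unequal readings of PTGS2.

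PTGES, which uses the product of the cyclooxygenases, stood at 0.75, 0.95 and 1.13 in the first E2-BSA, the estradiol and the first control array, and at -0.44 to -0.04 in the other 8. Its first arrays exceeded the second by 1.06 (E2-BSA) and 1.57 (control), and each of its probe sets parted the sets without overlap. PLA2G4A, at the head of the pathway, stood at 0.70, 0.98 and 0.84 in the same 3 arrays and at -0.63 to 0.07 in the other 8. Its first arrays exceeded the second by 1.33 (E2-BSA) and 0.91 (control).

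PTGS1, PTGER2, PTGER4 and HPGD overlapped between the sets. Their mean differences between first and second arrays were -0.09 for PTGS1, the cyclooxygenase that many tissues carry at rest, 0.07 for PTGER2, 0.26 for PTGER4 and 0.27 for HPGD. Probe set 203914_x_at of HPGD was above the larger set in all 3 arrays, at 0.26 to 0.35 against -0.21 to 0.03. Thus 3 of the 7 genes lay above the larger set without overlap, and 3 exceeded a mean difference of 1. Over all genes, 13.5% lay above it without overlap and 2.94% exceeded 1. None of the 7 lay below it or under -1, where 16.3% and 1.67% of all genes did. The sets hold different treatments and were drawn from the spike-ins, so these are values and no test was made. Set and array number cannot be told apart in the control and E2-BSA groups.

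**Figure D1:**
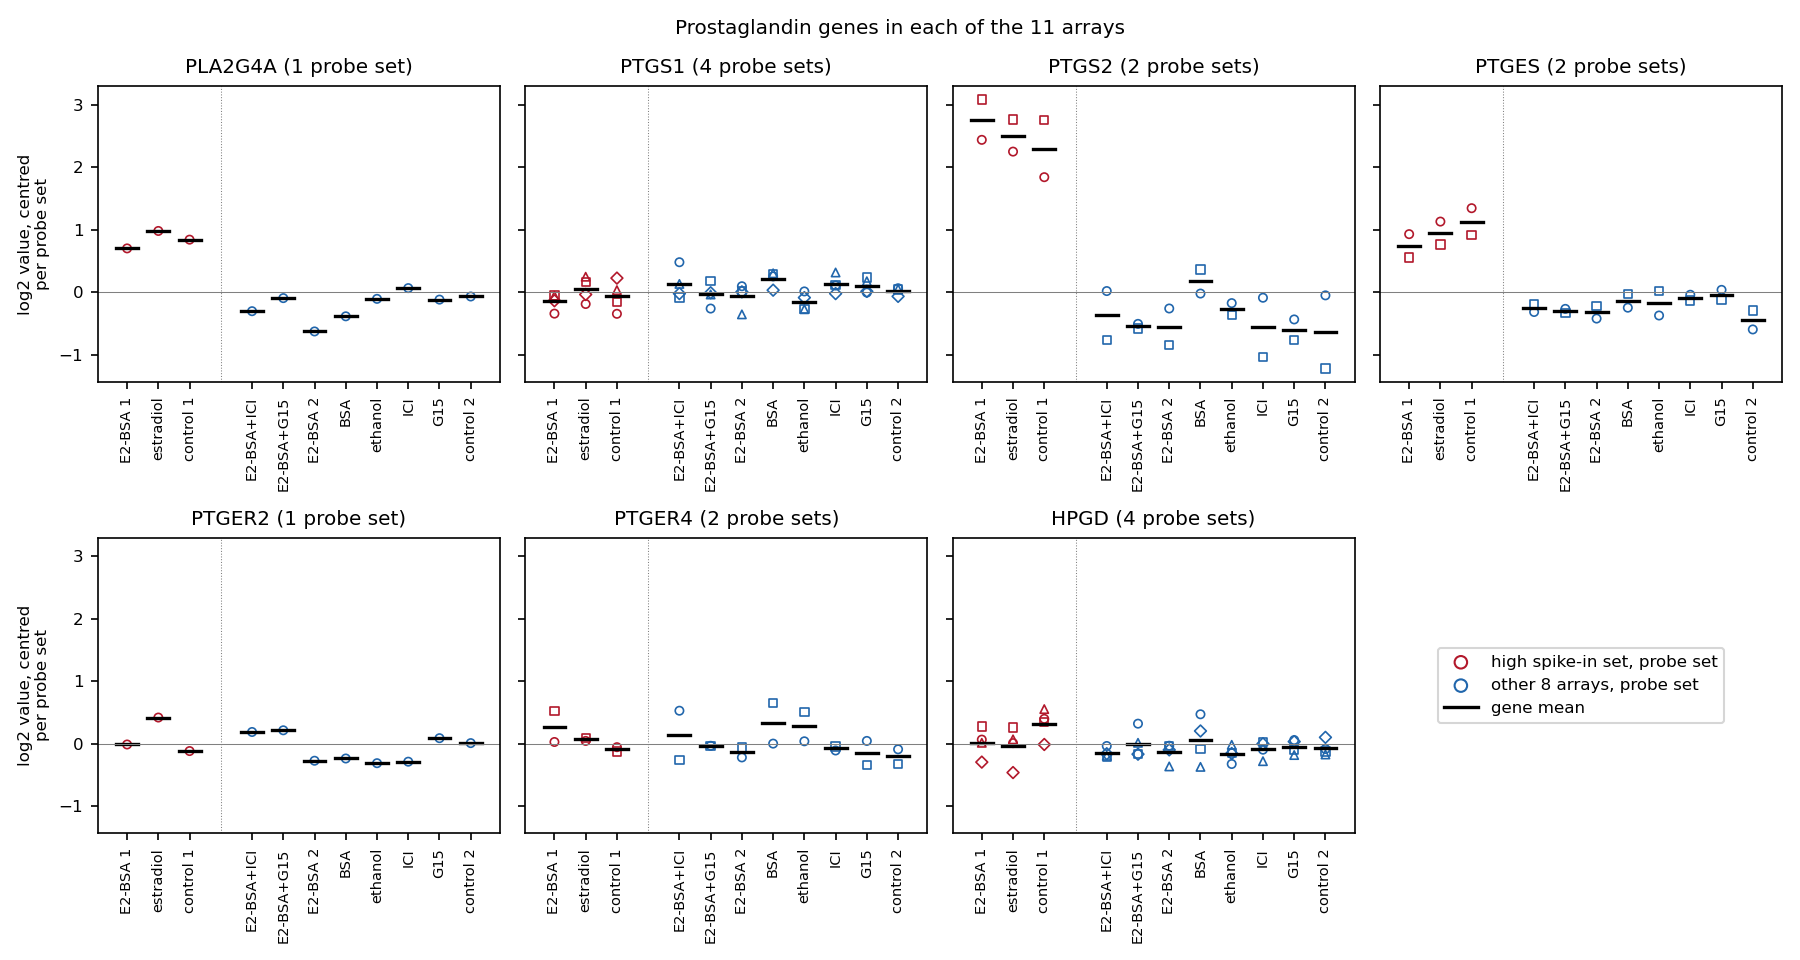
Log2 values centred per probe set (vertical axis) of the 7 prostaglandin genes in each array; open symbols are probe sets, black bars gene means, and the dotted line parts the 3 arrays with high spike-ins (left, red) from the other 8 (right, blue). PTGS2 sits at 2.30 to 2.76 on the left and at -0.63 to 0.17 on the right, PTGES and PLA2G4A part the sets by less, and the other 4 genes overlap.

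The carrier BSA was compared with the control to see what albumin does without the hormone. Within the larger set, PTGS2 was highest in the BSA array, at 0.17, followed by ethanol at -0.27, E2-BSA with ICI at -0.37, E2-BSA with G15 at -0.54, the second E2-BSA at -0.55, ICI at -0.56, G15 at -0.60 and the second control at -0.63. The 5 lowest spanned 0.09, which is less than the standard error of 0.21 of a single-array difference. The BSA array thus stood 0.81 above the second control, where 1.08% of genes differed by as much or more in either direction.

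The difference lay in 1 of its probe sets. Probe set 204748_at stood at 0.37 in the BSA array and -0.37 in the ethanol array. It was at -0.84 in the second E2-BSA array, -0.76 with ICI added, -0.58 with G15 added, -1.03 in the ICI array, -0.76 in the G15 array and -1.22 in the second control array. Probe set 1554997_a_at stood at -0.02 in the BSA array and at -0.05 in the second control array, within the -0.50 to 0.02 of the other 6. By these probe sets BSA was thus 1.59 and 0.03 above the second control.

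PTGER4, one of the receptors that raise cyclic AMP, ran in nearly the same order. It stood at 0.33 in the BSA array, 0.28 in the ethanol array, 0.14 in the array with E2-BSA and ICI, -0.03 in that with E2-BSA and G15, -0.08 with ICI, -0.14 in the second E2-BSA array, -0.15 with G15 and -0.20 in the second control. Its probe sets did not share this order. Probe set 204897_at was at 0.65 with BSA and 0.51 with ethanol, against -0.34 to -0.03 in the other 6. Probe set 204896_s_at was at 0.00 with BSA and 0.04 with ethanol, and was highest, at 0.53, in the array with E2-BSA and ICI.

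**Figure D2:**
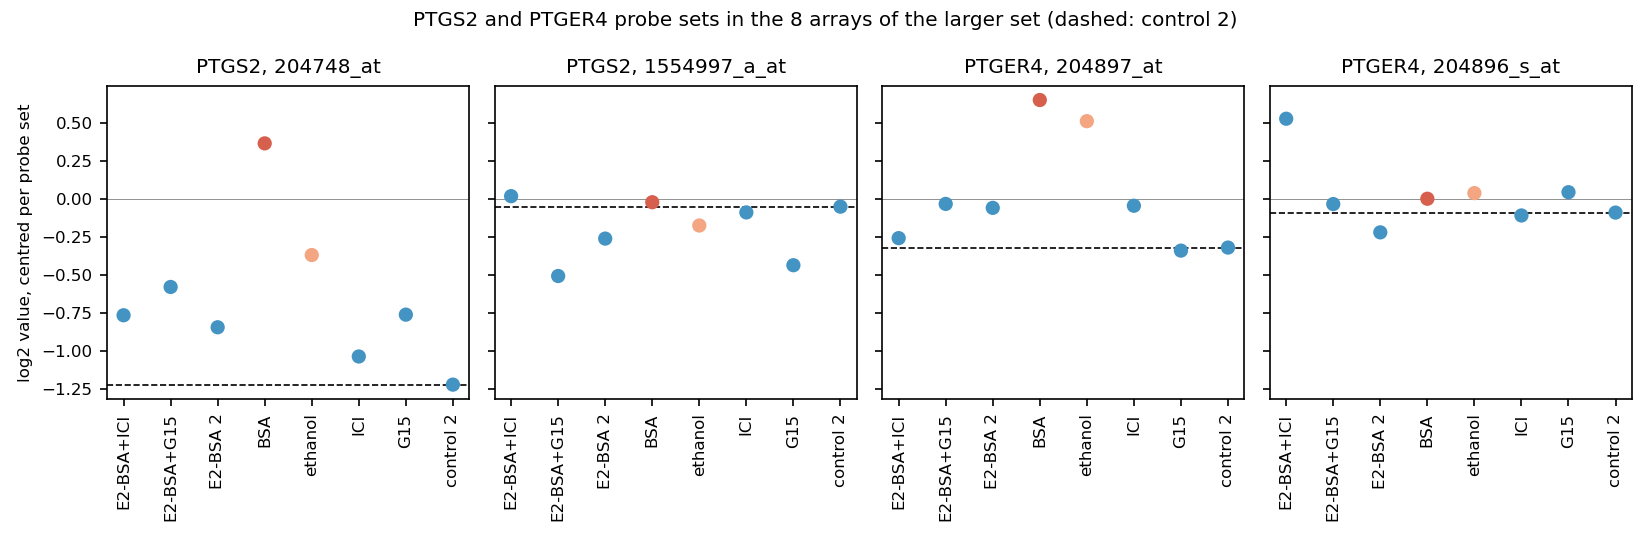
Log2 values centred per probe set (vertical axis) of the PTGS2 and PTGER4 probe sets in the 8 arrays of the larger set; the dashed line is the second control array, red is BSA and orange is ethanol. BSA and ethanol are the highest points for 204748_at and 204897_at but not for the other probe set of either gene.

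In the limma fit to all 11 arrays, with a term for the set and 3 residual degrees of freedom, BSA against control gave 0.86 ± 0.21 (SE) for PTGS2 and 0.59 ± 0.15 for PTGER4, where the median of all genes was 0.17. Neither passed over all genes (adjusted p = 0.221 and 0.220). Limma called 0 of the 7 genes, and 70 of all genes (0.354%). At an unadjusted p under 0.05 stood 2 of the 7, and 16.1% of all genes. The other 5 ranged from -0.17 (PLA2G4A) to 0.20 (PTGS1), and 4 of them lay below the median of all genes. With array medians subtracted PTGS2 was at 0.74 and PTGER4 at 0.47. With quantile normalization PTGS2 was at 1.21 and passed (adjusted p = 0.0162), 204748_at being at 2.35, and without the term for the set, where the first control counts as a match for BSA, its sign turned to -0.70.

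Fitted per probe set, 204748_at of PTGS2 rose by 1.54 ± 0.22 in the BSA array and passed over 54613 probe sets (limma, adjusted p = 0.0444). It was the 1 call among the 16 probe sets in this comparison, where 0.439% of all probe sets were called. The other PTGS2 probe set was at 0.19 ± 0.34, and 204897_at of PTGER4 at 0.97 ± 0.26 (adjusted p = 0.323). The call was lost without the second control array (1.47), the second E2-BSA array (1.59), the ICI array (1.55) or the array with E2-BSA and ICI (1.55). Leaving out any of these arrays also lost nearly every other call among the 54613 probe sets. The call was lost in the 8 arrays alone too (1.54), where other probe sets were still called. There was 1 BSA array, which the fit meets exactly, so its own spread was not measured and the SE comes from the E2-BSA pairs and limma's prior over all probe sets. This probe set was singled out after its values were seen. In the BSA array the 3′ minus 5′ difference of ACTB was the highest of the 11, and its part in these differences was not tested.

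Set against its own carrier, E2-BSA had the lower PTGS2, at -0.55 in the second E2-BSA array against 0.17 in the BSA array. The fit gave -0.67 ± 0.21 for PTGS2 (adjusted p = 0.225) and -0.40 ± 0.15 for PTGER4 (adjusted p = 0.244), against a median of -0.19 over all genes. Of the other 5 genes, PTGER2 was at 0.16 and 4 were between -0.33 and -0.09. Limma called 0 of the 7, against 0.308% of all genes, with 2 of the 7 and 17.8% of all genes at an unadjusted p under 0.05. Probe set 204748_at was at -1.25 ± 0.22 (adjusted p = 0.118), and 0 of the 16 probe sets were called, against 0.368% of all probe sets. With quantile normalization PTGS2 passed at -0.99 (adjusted p = 0.0486), and without the term for the set it was at 0.89. The same BSA array enters this comparison and that with the control.

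E2-BSA could be set against its match in 4 pairs of arrays, 2 of them with an antagonist in both. The PTGS2 average was higher with E2-BSA in each, by 0.46 between the first arrays, 0.08 between the second, 0.19 with ICI and 0.05 with G15. Averaged over its probe sets, PTGER4 was also higher in each, by 0.37, 0.07, 0.21 and 0.11. In the same order, 8.79%, 54.4%, 23.3% and 80.8% of genes differed by as much as PTGS2 in either direction. For PTGER4 these shares were 15.4%, 63.0%, 19.2% and 60.9%. How many of all genes kept 1 sign over the 4 pairs was not counted. Single probe sets were less uniform. In the same order of pairs, 204748_at of PTGS2 differed by 0.33, 0.38, 0.27 and 0.18, and 1554997_a_at by 0.60, -0.21, 0.11 and -0.07. For PTGER4, 204897_at differed by 0.65, 0.26, -0.21 and 0.31, and 204896_s_at by 0.08, -0.13, 0.64 and -0.08. Of these 4 probe sets, 204748_at was the one with the same sign in all 4 pairs. The gene averages differed by under 0.5, and the fit gave 0.20 ± 0.12 for PTGS2 and 0.19 ± 0.08 for PTGER4 (adjusted p = 0.903 for each).

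PLA2G4A was lower with E2-BSA in 3 of the 4 pairs, by a difference of -0.14, -0.56, -0.37 and 0.02 in the same order, and by -0.26 ± 0.11 in the fit (adjusted p = 0.903). In these pairs 54.3%, 0.288%, 4.6% and 91.5% of genes differed by as much as this phospholipase gene in either direction. It was read by 1 probe set, and each pair has 1 array a side. PTGES differed by -0.39, 0.12, -0.16 and -0.26, PTGER2 by 0.10, -0.28, 0.48 and 0.13, PTGS1 by -0.09, -0.08, -0.003 and -0.14, and HPGD by -0.31, -0.06, -0.06 and 0.05. The PTGS1 average was lower in all 4 pairs, by 0.14 at most, and the averages of the other 3 genes changed sign between pairs. Of the 4 PTGS1 probe sets, only 215813_s_at was lower in each pair, at -0.09, -0.41, -0.18 and -0.21. Probe set 211549_s_at of HPGD was also lower in each, at -0.28, -0.20, -0.16 and -0.20. For that HPGD probe set the fit gave -0.21 ± 0.08 (limma, adjusted p = 0.913). Every other HPGD probe set changed sign between pairs. These probe sets were picked after their values were seen, and the share of all probe sets with 1 sign over the 4 pairs was not counted.

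For E2-BSA present against absent, limma called 0 of the 7 genes and 0 (0%) of all genes, with 2 of the 7 (PLA2G4A and PTGER4) and 4.69% of all genes at an unadjusted p under 0.05. The fitted differences ran from -0.26 to 0.20. The 95% intervals of the 7 genes lay within -0.51 and 0.47. With E2-BSA and control arrays alone and the replicate number as a block, 1 residual degree of freedom was left. Limma called 0 of the 7 and 0 (0%) of all genes there.

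**Figure D3:**
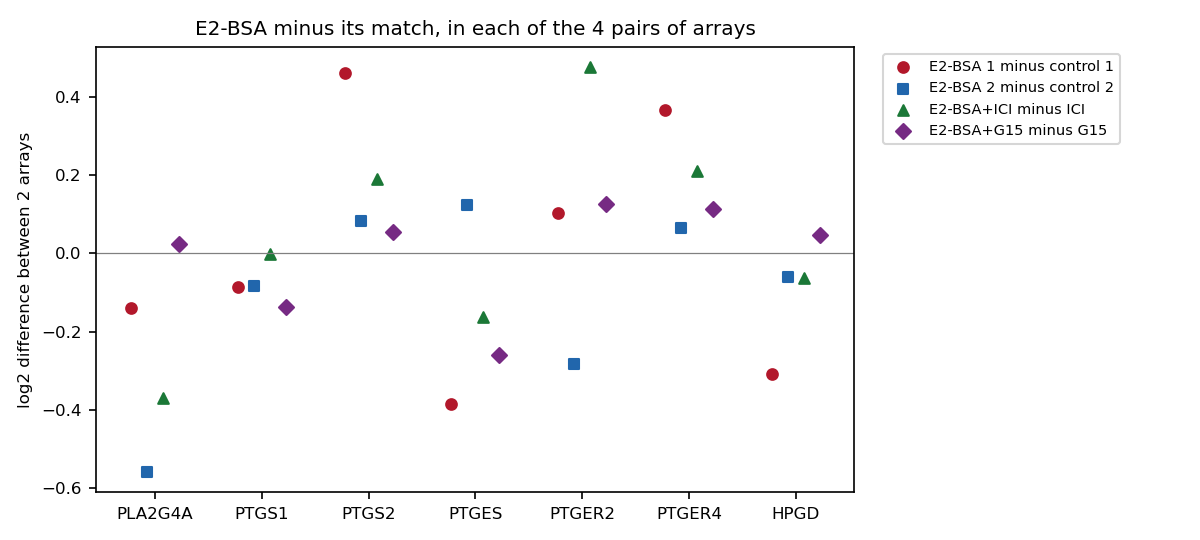
Log2 difference between 2 arrays (vertical axis) for each prostaglandin gene, E2-BSA minus its match in the 4 pairs given in the legend. Each point is a gene average. The averages of PTGS2 and PTGER4, though not each of their probe sets, are above 0 in all 4 pairs and PLA2G4A is below 0 in 3, with every difference between -0.56 and 0.48.

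The antagonists were compared with their matched arrays without them. PTGS2 stood at -0.37 with E2-BSA and ICI and at -0.55 with E2-BSA alone, and at -0.56 with ICI and -0.63 in the second control. With G15 it stood at -0.54 with E2-BSA and -0.60 without. In the fit, ICI present against absent gave between -0.02 (HPGD) and 0.23 (PLA2G4A), and G15 between 0.02 (PTGS2) and 0.28 (PTGER2), where all genes had medians of 0.14 and 0.11. No gene of the 7 was called for either antagonist by limma, nor any of all genes (0% for each), with 0 of the 7 at an unadjusted p under 0.05, against 16.3% of all genes for ICI and 10.3% for G15. The PTGS2 value with G15 averages probe sets of opposite sign, 204748_at at 0.36 ± 0.17 and 1554997_a_at at -0.32 ± 0.27. The PTGER2 difference with G15, 0.28 ± 0.17, had a 95% interval of -0.10 to 0.67.

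The E2-BSA differences of PTGER2 and PLA2G4A varied most between backgrounds. PTGER2 stood at 0.19 with E2-BSA and ICI against -0.29 with ICI, while without an antagonist it stood at -0.27 with E2-BSA against 0.01 in the second control. PLA2G4A stood at -0.63 with E2-BSA against -0.07 in the second control, and at -0.09 with E2-BSA and G15 against -0.12 with G15. Each of these values is 1 array, and the difference between the backgrounds was not tested.

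Ethanol, the vehicle of estradiol, was compared with the control. PTGS2 stood at -0.27 in the ethanol array and -0.63 in the second control, and PTGER4 at 0.28 and -0.20. The fit gave 0.42 ± 0.21 for PTGS2 and 0.54 ± 0.15 for PTGER4 (adjusted p = 0.855 and 0.528). By probe set, 204748_at was at 0.81 ± 0.22 (adjusted p = 0.662) and 1554997_a_at at 0.03 ± 0.34, and 204897_at at 0.83 ± 0.26 and 204896_s_at at 0.26 ± 0.25. With quantile normalization 204748_at was at 1.75 (adjusted p = 0.0689) and PTGS2 at 0.89. The ethanol array also had the highest hybridisation controls (0.77), whose part in this was not tested. The other 5 genes lay between -0.17 and 0.12. Limma called 0 of the 7, against 0.086% of all genes, and 1 of the 7 and 6.35% of all genes were at an unadjusted p under 0.05.

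Free estradiol lay in the set of 3, so it was compared there with the first control. PTGER2 was its furthest gene, at 0.42 in the estradiol array against -0.12 in the first control, and 0.54 ± 0.21 in the fit (adjusted p = 0.643). PTGS2 stood at 2.51 and 2.30, PTGES at 0.95 and 1.13, and HPGD at -0.03 and 0.32. Limma called 0 of the 7 and 0 (0%) of all genes, with 1 of the 7 and 7.06% of all genes at an unadjusted p under 0.05. Ethanol lay in the other set, and estradiol against its vehicle could not be read within one.

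Estradiol and its albumin conjugate were both given at 1 µM for 3 h. In the fit the estradiol array had no ethanol term, and the E2-BSA arrays had no BSA term. The part of vehicle and albumin in the differences between them was not tested. PTGS2 stood at 2.51 with estradiol and 2.76 with the first E2-BSA array, PLA2G4A at 0.98 and 0.70, and PTGER2 at 0.42 and -0.01. Limma called 0 of the 7 and 0 (0%) of all genes between them, with 0 of the 7 and 7.78% of all genes at an unadjusted p under 0.05. The difference was -0.12 for PTGS2, with a 95% interval of -0.62 to 0.37, and 0.43 for PTGER2, with an interval of -0.06 to 0.92, so differences of these sizes could not be told from 0. This comparison was added after the data were seen.

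**Figure D4:**
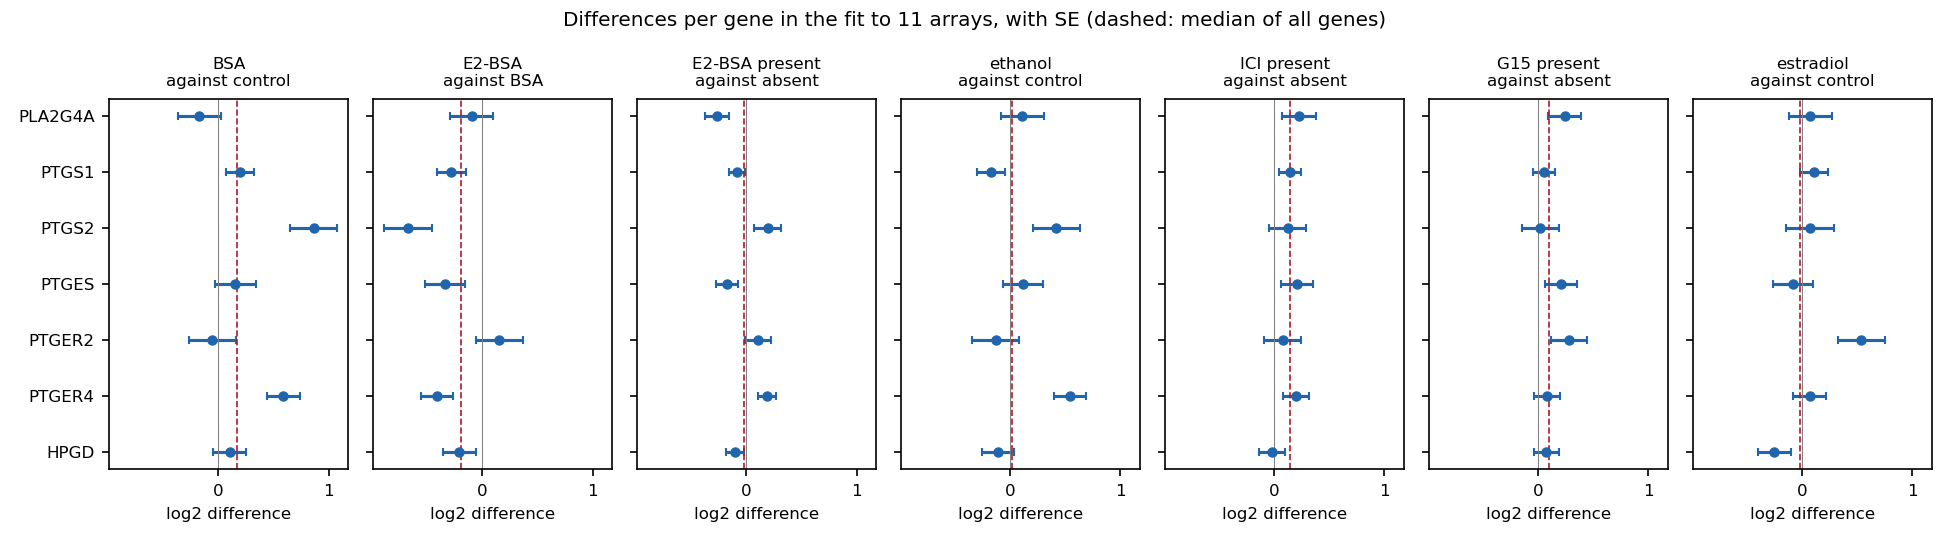
Log2 differences (horizontal axis) of the 7 prostaglandin genes in the fit to 11 arrays, for 7 comparisons; bars are SE and the dashed line is the median of all genes. PTGS2 and PTGER4 are furthest right in BSA against control, at 0.86 and 0.59, and PTGER2 in estradiol against control, at 0.54.

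Within the larger set, PTGS2 and PTGER4 were the most alike of the 21 pairs of these genes, with a Pearson r of 0.90 and a Spearman rho of 0.98 over 8 arrays, and r = 0.96 without the BSA and ethanol arrays. Of the arrays then left, that with E2-BSA and ICI stood apart. PTGS2 was at -0.37 there and -0.63 to -0.54 in the rest, PTGER4 at 0.14 and -0.20 to -0.03, so this r leans on 1 array. In it 204896_s_at of PTGER4 was at 0.53 and 204897_at at -0.26. Of all genes, the 5 most like PTGER4 had r from 0.97 to 0.99 over the 8 arrays, above its r with PTGS2. The 8 arrays share a set and were made of different treatments, so the coefficients are descriptions and carry no p. PTGS2 did not run with PTGES (r = 0.30) or PLA2G4A (r = -0.33) there, although these 3 genes stood together between the sets. Probe sets of 1 gene were themselves unequally alike within the larger set, from r = -0.63 for a pair of HPGD probe sets to 0.80 for a pair of PTGS1 probe sets. The r between probe sets was 0.08 for PTGS2, 0.31 for PTGES and -0.15 for PTGER4.

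Of all genes, those most like PTGS2 over the same 8 arrays were PIM3, which encodes a serine/threonine kinase (r = 0.99), NRG1, an EGF-family growth factor (0.98), HHIPL2 (0.98), NRARP, a feedback regulator of Notch signalling (0.98), and NFKBIA, the inhibitor of NF-kB that NF-kB itself induces (0.98). All 5 were highest in the BSA array, as PTGS2 was among the 8, which their choice by r over these arrays favours. NFKBIA stood at 0.95 there and -0.49 in the second control. Without the BSA and ethanol arrays their r lay between 0.77 and 0.90 over 6 arrays. Among those 6, the array with E2-BSA and ICI was the highest for each gene, as it was for PTGS2. None of these genes lay above the whole larger set in the set of 3, as PTGS2 did. NFKBIA stood at 0.51, 0.06 and 0.05 in the first E2-BSA, the estradiol and the first control array. In the larger set it was at 0.95 with BSA, 0.41 with ethanol and -0.49 to -0.04 in the rest.

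The rest of the pathway was described by a list of 30 other genes, of which 27 were measured. In every comparison limma called 0 of the 27 in either direction, where it called 0.354% of all genes for BSA against control, 0.308% for E2-BSA against BSA, 0.086% for ethanol and 0% in the other comparisons. In BSA against control 1 was higher and 1 lower at an unadjusted p under 0.05, where 16.1% of all genes stood, and the list's median of 0.17 was that of all genes. For E2-BSA present against absent 0 were higher and 2 lower, where 4.69% of all genes stood, with a median of 0.02 against -0.02. For ICI 5 were higher and 1 lower, where 16.3% of all genes stood at such a p, and the list's median was 0.09 against 0.14 for all genes. For G15 4 were higher and 0 lower, where 10.3% of all genes did, with a median of 0.12 against 0.11.

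Between the sets, 5 of the 27 lay above the larger set and 3 below it without overlap, where 13.5% and 16.3% of all genes did. AKR1C3, an aldo-keto reductase that makes prostaglandin F and also acts on steroids, stood at 1.95 with E2-BSA (first array), 2.73 with estradiol and 3.40 in the first control, against -0.47 to 0.07 in the other 8. It was read by 1 probe set and has close paralogues, so the reading is uncertain as to the gene. In the list, AKR1C3 alone differed by over 1 in a pair within a set, being lower in the first E2-BSA than in the first control array. MGLL, a lipase that supplies arachidonic acid in some tissues, was lower in the set of 3, at -1.31, -1.12 and -0.97 against 0.04 to 0.34. The other genes of the list differed by -0.34 to 0.65.

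**Figure D5:**
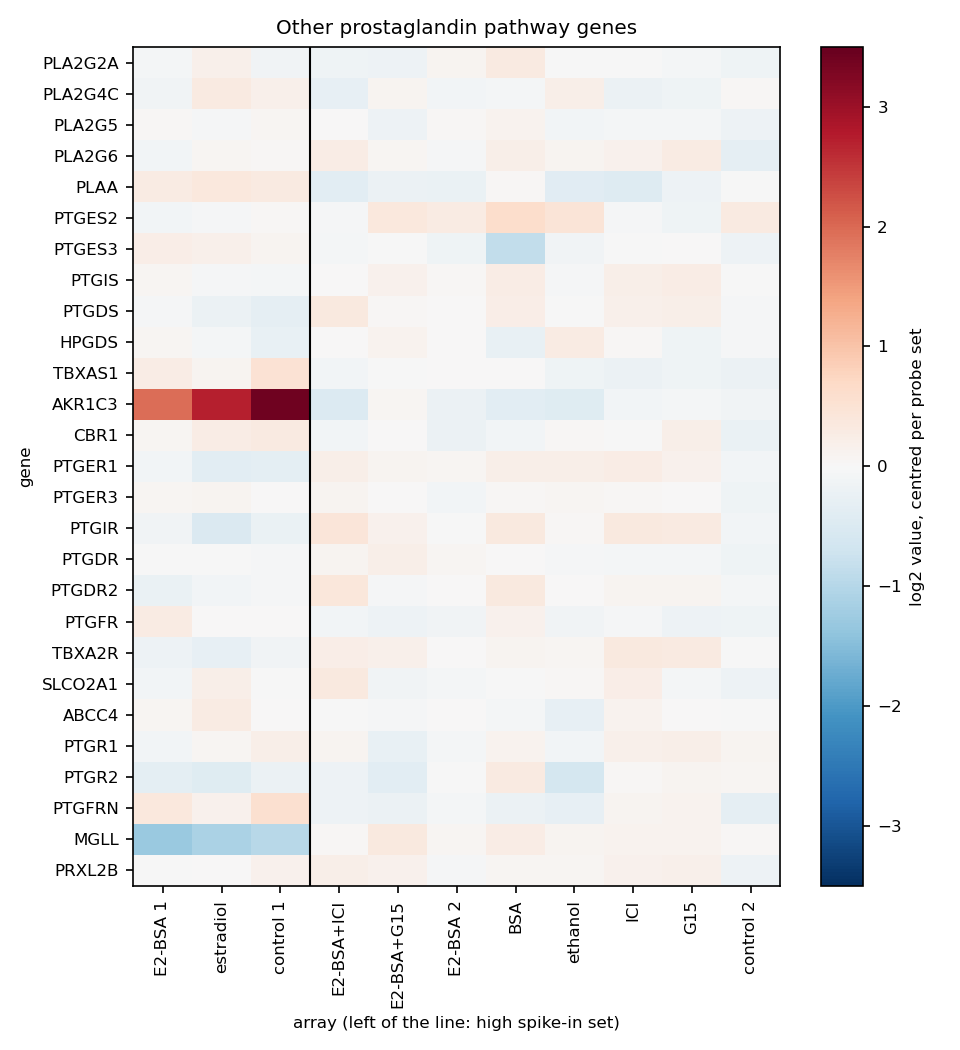
Log2 values centred per probe set (colour) of 27 other prostaglandin pathway genes (rows) in the 11 arrays (columns), the 3 with high spike-ins left of the line. AKR1C3, at 1.95 to 3.40, and MGLL, at -1.31 to -0.97, are the genes that part the sets by more than 1.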

How the data were processed

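RNA of MDA-MB-231 cells was hybridised to 11 arrays in 9 groups. The deposited log2 values are centred per probe set, and range from -4.2 to 6.69. Summarisation, normalization and log base are not given in the sources used here, and base 2 was assumed. Of 54675 probe sets, 41091 had 1 gene symbol, 1801 several, 11721 none and 62 were Affymetrix controls. Probe sets of a gene were averaged, giving 19775 genes, with no filter on low values. The arrays were parted at the largest gap of the poly-A spike-in means (1.30, the next being 0.39).

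Tests used limma 3.58.1 in R 4.3.3 on all genes, with terms for the set and each treatment and a prior variance that follows the mean value. As the values are centred per probe set, that mean is no level of expression. P-values were adjusted by Benjamini-Hochberg at 0.05. The fit was run on simulated data with independent normal errors of the fitted spread. These held no shift shared by the genes of an array, so the effect of such a shift was not checked. The same fit was run on 54613 probe sets. Members with a difference of at least 0.5 or a call, and other pathway genes past 1, are named with values. The members and lists were chosen with earlier results of these data known. Pearson correlations, promoters and figures used Python 3.11.15. Alternatives were another set term, model, scaling, summary, prior, filter and each array left out.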

Additional observations from a re-analysis of the deposited data

How the results depend on the processing

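Under the alternatives, 152 counts of called members stayed at 0 and 2 became 1, both under quantile normalization (1 for BSA against control and 1 for E2-BSA against BSA, PTGS2 in both). For E2-BSA present against absent and for estradiol, no setting called any of all genes. The same held for most settings with ICI and G15, and for some of E2-BSA against BSA and of ethanol. Counts of 0 in those settings therefore say little about the members. Without a term for the set, hence with no replicate block between first and second arrays, the signs turned: PTGS2 was at -0.70 (BSA against control) and 0.89 (E2-BSA against BSA), and 204748_at at -0.43, 0.72 and -1.17 for BSA against control, E2-BSA against BSA and ethanol against control. The set of 3 then enters the control and E2-BSA means, by the construction of that fit. With the replicate block and 4 arrays, 0 of the 7 genes and 0 of all genes were called for E2-BSA. For 204748_at in BSA against control, leaving out 1 array gave 1.47 to 1.59, called in 6 of 10 cases. Where it was not called, few or no probe sets were called at all. The 8 arrays alone gave 1.54 for it and no call. Its E2-BSA against BSA difference passed under quantile normalization (-2.02), without the variance trend (-1.25) and without the estradiol array (-1.25). The 5 gene differences of 0.5 or more kept their sign whichever array was left out, and none passed. Small differences turned sign with scaling in 6 cases, each under 0.11 in the reported fit (HPGD with BSA, PLA2G4A with E2-BSA against BSA and with estradiol, PTGER2 with ICI, PTGS1 and PTGS2 with G15). The alternatives for probe sets were chosen after the data were seen. Centred values do not show which probe sets were above background.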

Other observations

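PTGES3, a cochaperone that also has prostaglandin E synthase activity, was chosen after its values were seen. It stood at -0.86 in the BSA array and between -0.19 and 0.00 in the other 7 arrays of the larger set. Its difference for BSA against control was -0.68 ± 0.14 (SE) in limma, which did not pass (adjusted p = 0.154), and it was read by 1 probe set. PTGR2, a prostaglandin reductase also chosen after its values were seen, stood at -0.62 in the ethanol array and 0.07 in the second control array, with a difference of -0.77 ± 0.17 (adjusted p = 0.357).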
